A study of Mus musculus with 2 samples.

Results

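Type I interferon response genes were followed across the spleen cells of chronically anaemic mice. The set holds 40 genes chosen by symbol, and 39 of them matched 1 row each among the 32285 genes of the deposited matrices; Mx1 was not analysed here. Both libraries came from live spleen cells of C57BL/6 mice, prepared with 10x Genomics Chromium 3′ v3.1 chemistry. In the PHZ library, chronic anaemia had been induced by injection of PHZ (the usual abbreviation of phenylhydrazine, a haemolytic agent), and in the bleeding library by repeated bleeding; both were repeated at intervals of 3 days over a month. Each group is 1 library, and the number, age and sex of the mice behind it are not given in the sources used here. No untreated spleen was analysed here, so every contrast is between 2 forms of chronic anaemia. With 1 library per group there is no replicate and no test between treatments: intervals cover counting error only, and cells were not treated as replicates.

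Type I interferons bind a receptor made of IFNAR1 and IFNAR2. The kinases JAK1 and TYK2 then activate a complex that includes STAT2 and IRF9 and binds interferon-stimulated response elements in target promoters. The targets include RNA-binding IFIT proteins, the OAS family that makes the activator of RNase L, the ubiquitin-like modifier ISG15 with its ligase HERC6 and its protease USP18, and viperin (Rsad2), which makes a chain-terminating nucleotide. Other targets are membrane proteins such as IFITM3 and tetherin (Bst2), nucleic acid sensors such as MDA5 (Ifih1), PKR (Eif2ak2) and ZBP1, and the p200 family of DNA-binding proteins. In the spleen, red pulp macrophages clear damaged red cells, and in chronically anaemic mice the organ makes new ones.

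The promoters of 6 members are shown because these genes separate in the data below. As a share of UMIs outside haemoglobin, Isg15, Rsad2, Isg20, Oas3 and Ifit1 rose as red cell precursors filled with haemoglobin. Ifit3 was nearly absent from those precursors. Each line gives the 200 bases before the RefSeq start site (build GRCm38.p6, 5′ to 3′ on the gene's strand), with matches to the core of the interferon-stimulated response element, GAAANNGAAA on either strand, in capitals.
Isg15 (chr4:156200819-156201018, minus strand): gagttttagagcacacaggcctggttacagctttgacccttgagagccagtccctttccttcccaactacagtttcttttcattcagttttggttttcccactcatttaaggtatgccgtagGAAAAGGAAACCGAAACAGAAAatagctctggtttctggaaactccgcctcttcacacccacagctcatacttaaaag
Rsad2 (chr12:26456453-26456652, minus strand): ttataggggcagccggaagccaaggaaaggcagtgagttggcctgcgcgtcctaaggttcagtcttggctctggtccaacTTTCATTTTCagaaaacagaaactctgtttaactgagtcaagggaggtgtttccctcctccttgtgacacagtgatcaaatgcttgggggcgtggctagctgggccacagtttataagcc
Oas3 (chr5:120777660-120777859, minus strand): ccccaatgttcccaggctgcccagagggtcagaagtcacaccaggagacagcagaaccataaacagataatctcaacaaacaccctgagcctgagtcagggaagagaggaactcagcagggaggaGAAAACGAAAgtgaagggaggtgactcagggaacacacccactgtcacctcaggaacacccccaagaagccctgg
Ifit1 (chr19:34640689-34640888, plus strand): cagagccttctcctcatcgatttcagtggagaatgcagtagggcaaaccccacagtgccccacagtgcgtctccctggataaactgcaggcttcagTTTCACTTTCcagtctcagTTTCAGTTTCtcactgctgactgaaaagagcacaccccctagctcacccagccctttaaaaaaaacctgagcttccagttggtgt
Ifit3 (chr19:34583329-34583528, plus strand): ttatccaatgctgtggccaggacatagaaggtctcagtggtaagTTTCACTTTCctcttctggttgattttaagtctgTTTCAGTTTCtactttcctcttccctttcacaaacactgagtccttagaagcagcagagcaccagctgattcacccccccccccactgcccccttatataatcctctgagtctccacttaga
Isg20 (chr7:78913224-78913423, plus strand): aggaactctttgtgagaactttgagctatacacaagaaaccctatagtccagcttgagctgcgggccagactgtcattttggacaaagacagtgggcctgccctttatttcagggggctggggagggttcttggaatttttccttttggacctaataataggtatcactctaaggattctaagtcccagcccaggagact
Of the 40 listed genes, 31 had a promoter in the RefSeq table, and 18 of these (58.1%) held the response element core in the window from 250 bases before to 50 after the start, against 3.99% of 27025 genes. The core of the gamma-activated site, TTCNNNGAA, was present in 8 of 31 members (25.8%) and 9.55% of all genes, and the GATA hexamer AGATAA in 6 (19.4%) and 12.7%. Isg15 held 3 overlapping response element matches in the bases shown, Ifit1 and Ifit3 held 2 each, Rsad2 and Oas3 held 1, and the letters were not found in any of the 3 Isg20 windows of the table, of which 1 is shown. The match nearest to the start of Isg15 began 66 bases before it, and the single match of Rsad2 began 120 bases before it. Of the 11 genes that rose with haemoglobin, 10 had a promoter and 4 held the core, and all 4 are shown. Irf7 and Oasl2, for example, rose without holding it and are not shown. Of the other 29 listed members, 21 had a promoter and 14 held the core. A match is a description of the letters and was not tested as a binding site.

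The matrices held 128130213 UMIs (PHZ) and 145260780 UMIs (bleeding), where a UMI is a counted RNA molecule. After filtering, 6113 PHZ cells and 8953 bleeding cells remained, with a median of 12242 and 8045 UMIs; 15 cell barcodes occurred in both libraries. Clusters were named from marker genes, with the members and the other listed interferon-pathway genes left out of the clustering. The "-like" names therefore rest on other genes, except that the listed gene Ube2l6 was also a late erythroid marker. Interferon genes outside these lists were not left out. Erythroid-like cells numbered 3342 (PHZ) and 2421 (bleeding), B cell-like cells 1498 and 3450, T cell-like cells 544 and 2156, NK cell-like cells 64 and 159, neutrophil-like cells 295 and 111, monocyte-like cells 154 and 71, and dendritic cell-like cells 71 and 146. Levels are CPM, the UMIs of a gene per 1000000 of the class's UMIs without haemoglobin genes. Alas2, the erythroid enzyme of haem synthesis, stood at 15668 and 17414 CPM in late erythroid-like cells, the B cell antigen receptor gene Cd79a at 1975 and 1900 in B cell-like cells, and the T cell receptor gene Cd3e at 388 and 385 in T cell-like cells. In background barcodes of 10 to 100 UMIs, which hold mostly free RNA, Rsad2 stood at 684 CPM (PHZ) and 465 CPM (bleeding), Isg15 at 492 and 198, and Isg20 at 393 and 257.

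Most members were highest in monocyte-like or erythroid-like cells. Levels were ranked over the 7 classes with at least 50 cells in both libraries. Of the 39 members, 28 had the same highest class in both libraries, and for 18 of these the counting intervals of the highest and second class were apart in both. Monocyte-like cells were highest for 10 of the 18, erythroid-like cells for 5 (Isg15, Rsad2, Isg20, Oas3 and the nucleotide kinase gene Cmpk2), and B, T and dendritic cell-like cells for 1 each. Ifitm3 was the most abundant member in monocyte-like cells, at 2807 CPM (PHZ) and 3405 CPM (bleeding), ahead of Ifi27l2a at 1095 and 1220 and of Samhd1, a deoxynucleotide triphosphate hydrolase, at 1006 and 1103. Ifi204, a p200 gene, stood at 246 and 336 CPM there against 27.0 and 17.8 in the next class. Ifi211 was also highest there, at 91.4 and 178 CPM, whereas Ifi203 was highest in B cell-like cells (409 and 400 CPM) and Ifi213 in T cell-like cells (78.8 and 112 CPM). Ifi203, Ifi204, Ifi206, Ifi211 and Ifi213 lie together within 474 kb of chromosome 1. Bst2 was highest in dendritic cell-like cells, at 670 and 367 CPM.

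**Figure D1:**
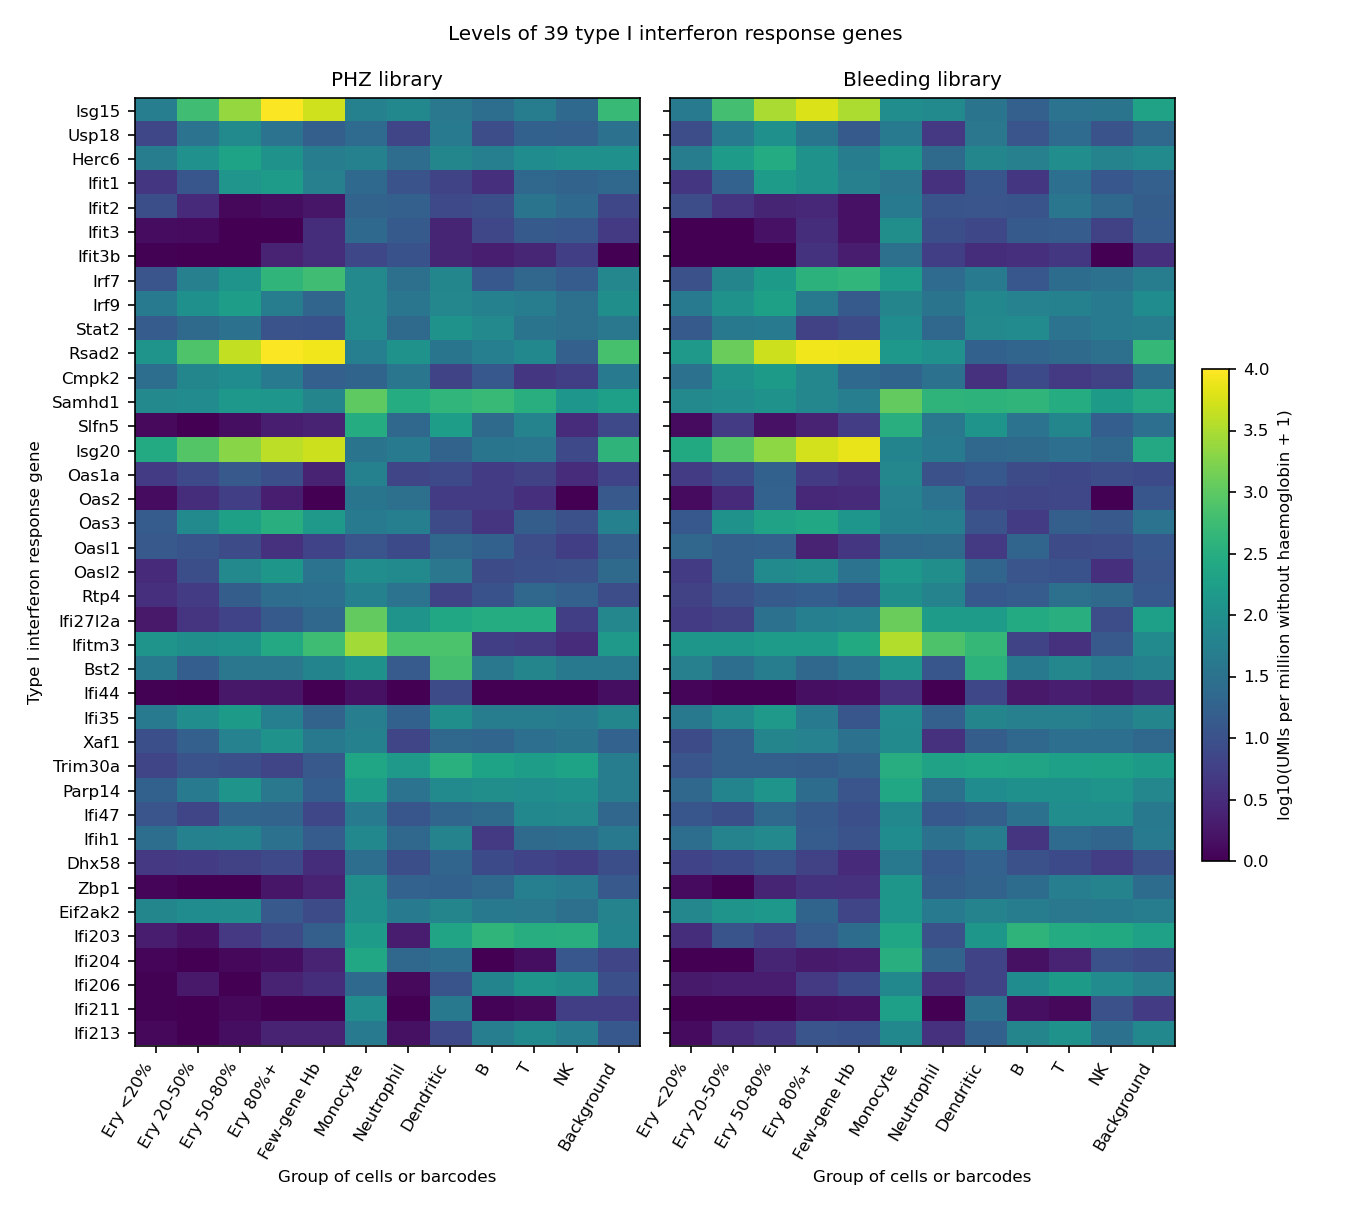
Levels of the 39 members (rows) in each group of cells or barcodes (columns), as log10(CPM + 1), with the PHZ library on the left and the bleeding library on the right. "Ery" columns are erythroid-like cells by haemoglobin share of their UMIs, and "Few-gene Hb" are haemoglobin-rich barcodes with under 300 genes. Isg15, Rsad2 and Isg20 brighten towards the haemoglobin-rich columns in both libraries, while Ifitm3, Ifi27l2a, Samhd1 and Ifi204 are brightest in monocyte-like cells.

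Erythroid maturation was read from the haemoglobin share of each cell's UMIs, since haemoglobin accumulates as precursors mature and no member is a haemoglobin gene. The bands under 20%, 20 to 50%, 50 to 80% and 80% or more held 435, 326, 901 and 1680 PHZ cells and 214, 138, 395 and 1674 bleeding cells. Rsad2 climbed from 117 CPM to 787, 4226 and 9510 CPM (PHZ) and from 145 to 1207, 5029 and 8211 CPM (bleeding). Isg15 climbed from 50.2 to 587, 2298 and 9310 CPM and from 44.3 to 634, 3116 and 6219 CPM. Isg20, an RNA exonuclease gene, began higher, at 276 and 264 CPM, and reached 3987 and 5325 CPM. Each step upward occurred in both libraries, and the 3 genes were above their background-barcode level in the last 2 bands.

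Between the highest and the lowest band, a member was called where it differed at least 1.5-fold in both libraries with 95% intervals that left out 1. Of 20 members compared, 11 were called higher, 1 lower and 8 neither. The other 19 were not compared, as their mean over both bands was under 10 CPM in at least 1 library. Ifit1, Oasl2, Usp18 and Xaf1 stood under 10 CPM in the lowest band of both libraries. They were therefore compared only through the band where they were high. Over all 6331 genes compared, 9.1% were called higher and 81.2% lower. Isg15 rose 186-fold in PHZ cells (95% interval 172 to 200) and 140-fold in bleeding cells (125 to 158). Rsad2 rose 81.4-fold and 56.7-fold, Oasl2 62.3-fold and 24.0-fold, Ifit1 48.5-fold and 34.0-fold, and Irf7, the transcription factor that amplifies interferon production, 41.2-fold and 41.3-fold. Oas3 rose 23.6-fold and 20.7-fold and Isg20 14.4-fold and 20.1-fold. Smaller rises were called for Xaf1 (13.6-fold and 7.76-fold), Usp18 (5.42-fold and 4.43-fold), Herc6 (2.23-fold and 2.37-fold) and Cmpk2 (1.71-fold and 2.30-fold). Eif2ak2, which encodes the kinase PKR, was the only compared member called lower. It fell from 67.8 to 11.9 CPM in the PHZ library and from 71.1 to 18.1 CPM in the bleeding library. Among members not compared, Oasl1 fell from 12.2 to 2.68 CPM (PHZ) and from 20.1 to 1.40 CPM (bleeding), and Ifit2 fell as well.

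**Figure D2:**
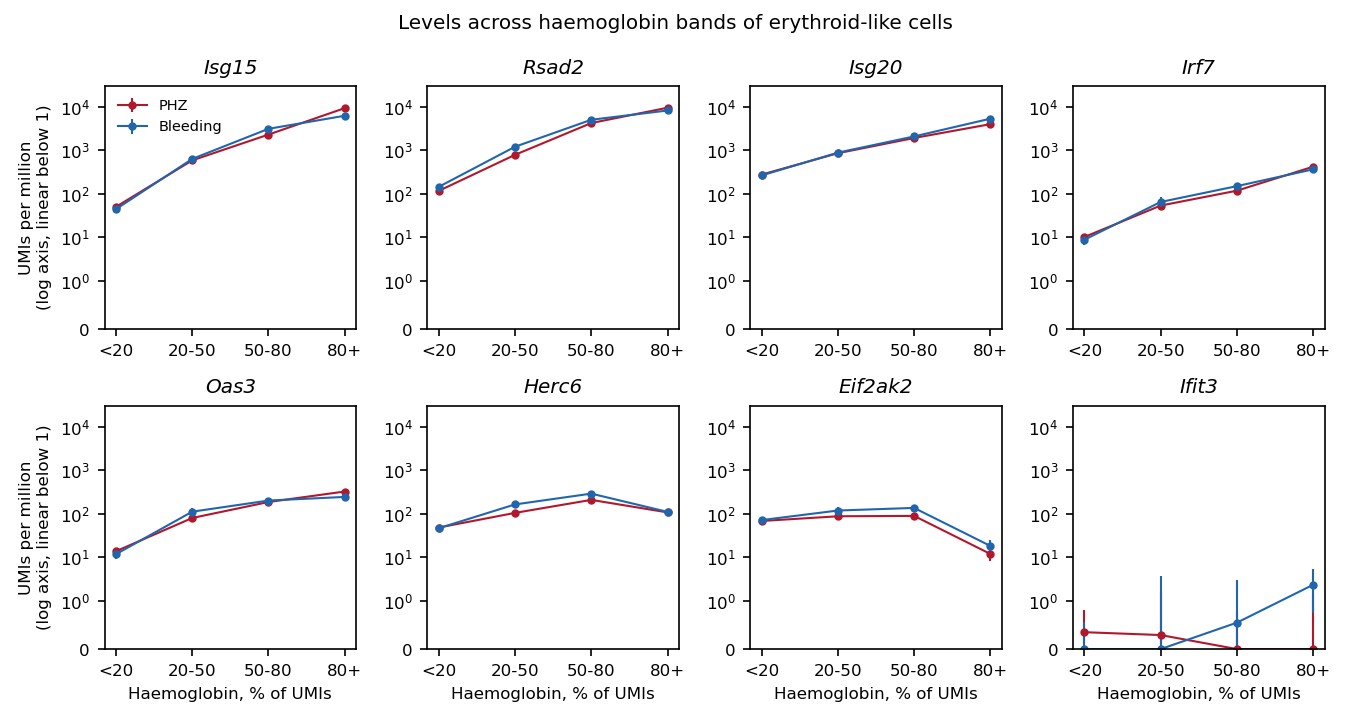
Levels (CPM; log axis, linear below 1) of 8 members across the haemoglobin bands of erythroid-like cells, with exact Poisson 95% intervals, in the PHZ (red) and bleeding (blue) libraries. Isg15, Rsad2, Isg20, Irf7 and Oas3 rise in both libraries, Herc6 peaks at 50 to 80% haemoglobin, Eif2ak2 falls at 80% or more, and Ifit3 stays at or near 0.

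These levels are shares of what RNA remains, and the RNA outside haemoglobin shrinks as cells mature, so the same genes were counted in 2 other ways. Of the 11 genes, 7 also rose as CPM of all UMIs, haemoglobin included, and 5 also rose in UMIs per barcode (Isg15, Rsad2, Irf7, Ifit1 and Oasl2). A barcode held on average 3.85, 8.32, 22.5 and 14.8 Rsad2 UMIs across the 4 PHZ bands, and 4.44, 8.75, 23.3 and 10.5 across the bleeding bands. For Isg15 the averages were 1.65, 6.20, 12.3 and 14.5 (PHZ) and 1.36, 4.59, 14.4 and 7.98 (bleeding). For Isg20 they were 9.09, 9.05, 10.2 and 6.20 (PHZ) and 8.11, 6.40, 9.64 and 6.84 (bleeding). The Isg20 averages were thus lower in the last band than in the first. Oas3 went from 0.451 in the first band to 0.501 in the last (PHZ) and from 0.360 to 0.311 (bleeding). Per barcode, 7 of the 11 genes were highest at 50 to 80% haemoglobin in both libraries, and Herc6 and Cmpk2 were highest under 20%. Herc6, for example, went from 1.58 UMIs per PHZ barcode under 20% haemoglobin to 0.166 at 80% or more.

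Not every response gene took part. Ifit2 stood at 8.11 CPM (PHZ) and 7.77 CPM (bleeding) under 20% haemoglobin and at 0.383 and 1.86 CPM at 80% or more, and Ifit3 had 0 UMIs in the PHZ cells of 80% or more haemoglobin, which allows a level of up to 1.15 CPM (3 UMIs), while Ifit1 reached 163 and 114 CPM. The 4 Ifit genes lie within 99.3 kb of chromosome 19, and both promoters shown for Ifit1 and Ifit3 hold 2 response element matches. Rsad2 and Cmpk2 are neighbours within 37.1 kb of chromosome 12, and Rsad2 reached 9510 CPM in the PHZ cells where Cmpk2 stood at 45.2 CPM. The p200 genes and Slfn5 stood at or under 13.5 CPM in every band of both libraries. Of the 11 genes that rose, 10 had a RefSeq promoter and 4 of these held the response element core (Isg15, Ifit1, Oas3 and Rsad2); of the other 29 listed members, 21 had a promoter and 14 held it. Among other interferon-pathway genes, Ube2l6, the conjugating enzyme for ISG15, was abundant in late erythroid-like cells at 7085 CPM (PHZ) and 7918 CPM (bleeding); it was one of the genes used to name that stage. Uba7, the activating enzyme for ISG15, was at 49.2 and 29.0 CPM.

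Compared between treatments over all erythroid-like cells, the members were slightly lower in the PHZ library, with a median log2 ratio of -0.19 over 23 members against 0.04 over all genes. This direction depended on the scale: with haemoglobin kept in the denominator the median was 0.26 against 0.50 over all genes, and after scaling every cell to one total it was 0.21 against 0.39, so the members lay below the median gene on all 3 scales. The mix of haemoglobin bands also differed: cells of 80% or more haemoglobin were 1680 of 3342 (PHZ) and 1674 of 2421 (bleeding). The part of this mix in the pooled median was not tested. Of the 23 members, 2 were called lower and 0 higher, where 2.37% of all genes were called lower and 1.06% higher. Ifi27l2a stood at 3.30 CPM (PHZ) and 17.2 CPM (bleeding), a ratio of 0.191 (95% interval 0.146 to 0.248). Lymphocyte markers in the same cells were lower in the PHZ library as well: the 18 B cell markers summed to 118 and 469 CPM and the 19 T cell markers to 19.3 and 134 CPM. Their part in the Ifi27l2a ratio was not tested. Oasl1 stood at 9.93 and 15.5 CPM, a ratio of 0.640 that lost its call with haemoglobin in the denominator (0.865), with each cell scaled (0.996) and without the 3 cells with most of its UMIs in each library (0.673). Called here means a ratio of at least 1.5-fold with an exact 95% interval that leaves out 1, among genes with a mean of at least 10 CPM and at least 20 UMIs.

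Split by haemoglobin band, the medians of erythroid-like cells differed in sign. The members' median log2 ratio was -0.02 under 20% haemoglobin (17 members), -0.49 at 20 to 50% (22), -0.36 at 50 to 80% (27) and 0.41 at 80% or more (23), while the median over all genes was -0.02, 0.01, -0.02 and 0.10. Called lower in the PHZ library were 1 member under 20% (1.54% of all genes), 6 at 20 to 50% (5.72%) and 6 at 50 to 80% (4.95%). At 80% or more, 7 members were called higher (15.8% of all genes) and 3 lower (12.1%). Haemoglobin-rich barcodes with under 300 genes, 2568 (PHZ) and 3019 (bleeding), were left out as cells; they had a median of 0.33, with 4 members called higher (15.3%) and 1 lower (12.5%). The difference between bands was not tested.

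**Figure D3:**
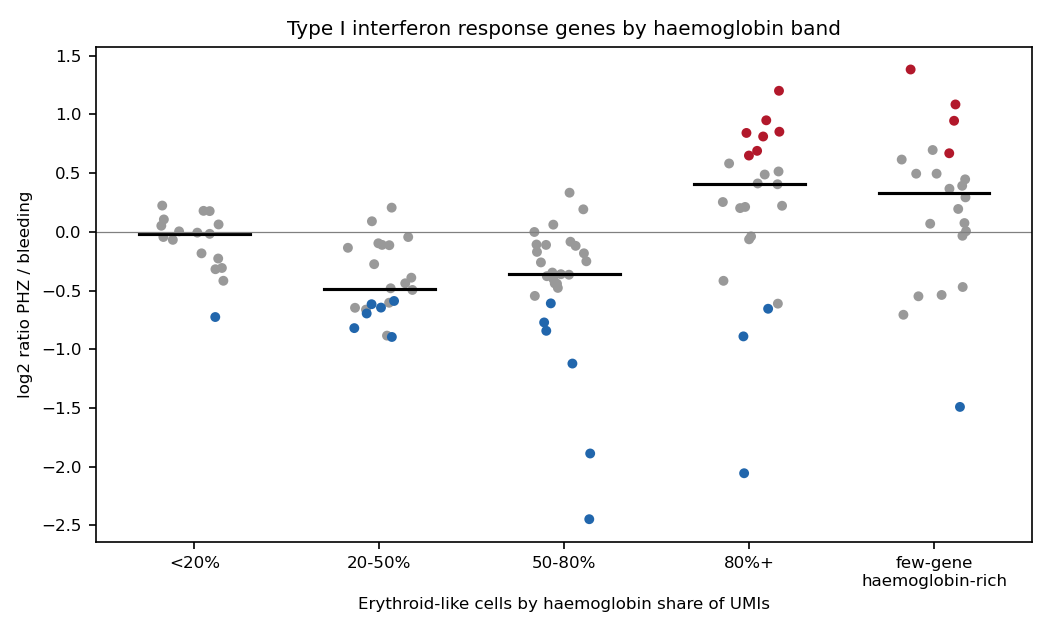
Log2 ratio of PHZ over bleeding for each compared member (points), by haemoglobin band of erythroid-like cells and in haemoglobin-rich barcodes with under 300 genes. Black bars are medians; red and blue points are members called higher or lower. The median lies at -0.02, -0.49, -0.36, 0.41 and 0.33 from left to right.

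In the middle bands the lower genes included Rsad2, at 787 CPM (PHZ) against 1207 CPM (bleeding) at 20 to 50% haemoglobin, a ratio of 0.652 (0.609 to 0.698). Herc6 (0.639), Stat2 (0.566), Cmpk2 (0.617), Bst2 (0.537) and the ADP-ribosyltransferase gene Parp14 (0.665) were the other 5 called there. Without the 3 cells with most UMIs of the gene in each library, 0 of these 6 calls stayed, and the ratios were 0.699 for Rsad2 (0.650 to 0.752), 0.754 for Herc6, 0.651 for Stat2 (0.412 to 1.05), 0.758 for Cmpk2, 0.576 for Bst2 and 0.711 for Parp14. At 50 to 80% haemoglobin they were Oas2 (0.270), Oasl1 (0.459), Ifi27l2a (0.183), Trim30a (0.557), Cmpk2 (0.586) and Eif2ak2 (0.655). Of these, Trim30a (0.787) and Eif2ak2 (0.671) lost the call without their 3 highest cells, and Ifi27l2a went to 0.322 (0.176 to 0.584). The B cell markers summed to 137 and 506 CPM in this band and the T cell markers to 26.0 and 102 CPM, and their part was not tested. At 80% or more, the 7 higher and 3 lower calls stayed without those cells. Over all cells of each band, Cmpk2 was called lower in both middle bands, and it was also lower at 80% or more, with a ratio of 0.635. Proliferating erythroid precursor-like cells (439 and 180 cells), named from cell cycle genes, pointed the same way, with a median of -0.32 over 19 members and 3 called lower against 3.53% of all genes. These were Ifitm3 at 102 and 157 CPM, Bst2 at 18.9 and 35.5 CPM, and Cmpk2 at 55.6 and 87.8 CPM; Ifitm3 and Cmpk2 lost the call without the 3 cells with most UMIs of the gene in each library, at 0.753 and 0.689.

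Late erythroid-like cells (1258 and 1425 cells) had more higher than lower calls. Their median log2 ratio was 0.42 over 22 members, against 0.04 over all genes, with 8 members called higher and 2 lower; 15.9% of all genes were called higher and 15.2% lower, so calls were common in these cells. Isg15 stood at 9843 CPM (PHZ) and 5912 CPM (bleeding), a ratio of 1.66 (1.62 to 1.71). Ifit1 stood at 155 and 66.4 CPM, a ratio of 2.33 (1.86 to 2.93), and Oas3 at 342 and 225 CPM, a ratio of 1.52. Ifitm3 (1.72), Xaf1 (2.18), Samhd1 (1.93), Bst2 (2.16) and Ifih1 (4.67, from 43 and 9 UMIs) were the other genes called higher, and Bst2 lost its call without the 3 cells with most of its UMIs, at 1.66 (0.965 to 2.91). Ifi27l2a (0.231) and Trim30a (0.469, from 12 and 25 UMIs) were called lower. Rsad2 was at 9619 and 7867 CPM, a ratio of 1.22, and Isg20 was lower in the PHZ library at 4058 and 5566 CPM, a ratio of 0.729, so the 3 most abundant members did not move together. Of 13 other type I interferon genes compared, 2 were called higher and 6 lower. Uba7, with a ratio of 1.69, was among the higher ones, and the lower ones were Ly6e (0.379), Mndal (0.195), Slfn2 (0.415), Ly6a (0.0997), Epsti1 (0.296) and Ifi209 (0.269). Markers of other cells moved beside these values: S100a8, a neutrophil gene, stood at 472 and 231 CPM in late erythroid-like cells and at 2438 and 1198 CPM in background barcodes, and Cd79a at 26.0 and 99.0 CPM and at 162 and 402 CPM. Their part in the members' ratios was not tested; the 2 late clusters taken alone gave medians of 0.68 and 0.39. Cluster 9, an erythroid-like cluster with no stage name (367 and 190 cells), lay on the other side of 0, with a median of -0.27 over 21 members, 1 called higher (10.9% of all genes) and 5 lower (5.36%). Its core interferon genes, led by Isg15 and Rsad2, summed to 20775 CPM (PHZ) and 20224 CPM (bleeding).

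Monocyte-like cells showed the broadest difference between the libraries. Of 38 members compared, 37 had a ratio under 1 and the median log2 ratio was -0.59, against 0.01 over all genes. Called lower in the PHZ library were 17 members, where 3.58% of all genes were called lower; 0 members were called higher, where 3.76% of all genes were. The lowest ratios were those of the RNA-binding Ifit3 and Ifit3b: Ifit3 stood at 22.6 CPM (PHZ) and 95.01 CPM (bleeding), a ratio of 0.238 (0.159 to 0.352), and Ifit3b had 12 and 22 UMIs, a ratio of 0.214 (0.0965 to 0.452). These 2 genes are near-identical copies, so reads may have been split or lost between them. Irf7 stood at 75.6 and 154 CPM, a ratio of 0.491 (0.382 to 0.633), Rsad2 at 52.0 and 135 CPM (0.385), and Isg15 at 55.7 and 91.0 CPM (0.612). Among the p200 genes, Ifi206 (0.312), Ifi211 (0.513) and Ifi213 (0.599) were called lower, and Ifi204 was at 246 and 336 CPM, a ratio of 0.733. The remaining calls were Ifit2 (0.430), Herc6 (0.473), Isg20 (0.526), Usp18 (0.535), the receptor transporter gene Rtp4 (0.575), the GTPase gene Ifi47 (0.578), Ifi35 (0.592), Oas2 (0.602) and Parp14 (0.653).

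**Figure D4:**
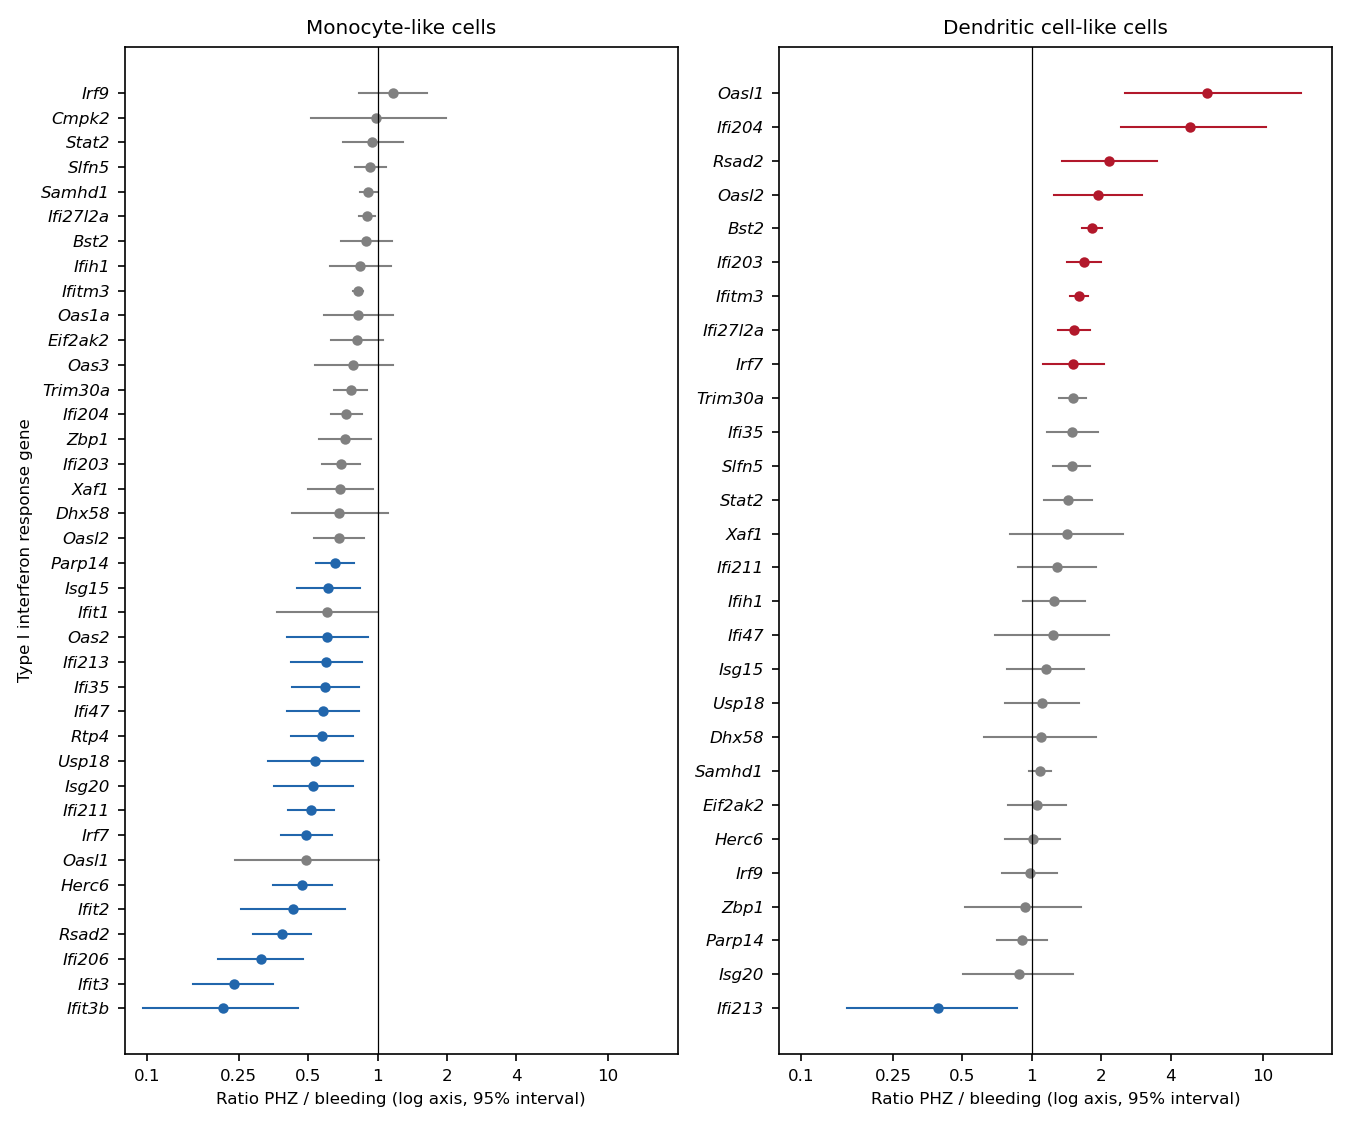
Ratio of PHZ over bleeding with exact 95% intervals (log axis) for the 38 members compared in monocyte-like cells (left) and the 28 compared in dendritic cell-like cells (right). Blue genes were called lower and red genes higher. Nearly all points lie left of 1 in monocyte-like cells, and 23 of 28 lie right of 1 in dendritic cell-like cells.

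The 3 most abundant monocyte members were not called: Ifitm3 had a ratio of 0.824 (0.786 to 0.864), Ifi27l2a 0.897 and Samhd1 0.912. Of 8 receptor and kinase genes, 0 were called and the median log2 ratio was 0.01. Ifnar2, a chain of the interferon receptor, stood at 289 and 304 CPM (0.953) and Jak1 at 187 and 199 CPM (0.940). Among the members, Irf9 and Stat2 had ratios of 1.16 and 0.948. Of 32 other type I interferon genes, 27 were compared and 4 were called lower: Ifi209 (0.623), Phf11b (0.611), Helz2 (0.508) and Pml (0.534). From the list of 21 interferon gamma genes, 16 were compared and 1 was called lower, Gbp9 at 0.517.

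The monocyte-like difference rested partly on few cells. The 3 cells with most core interferon UMIs (summed over 19 genes such as Isg15, Ifit1 and Oas3) held 29.9% of such UMIs in the bleeding library, where they were 4.23% of cells, and 13.6% in the PHZ library, where they were 1.95%. Without these 3 cells in each library the median was -0.33 over 37 members, 6 of them above 1. Leaving out the 3 cells with most UMIs of each gene in turn ended 9 of the 17 calls (Isg15, Ifit2, Ifit3b, Irf7, Oas2, Usp18, Parp14, Ifi213 and Ifi47), and Ifi47 went to 1.02. The other 8 calls stayed in that setting, and without cells of 10% or more haemoglobin Isg20 lost its call, at 0.789 (0.433 to 1.49). Cells with more UMIs of Ly6c2, Ccr2 and F13a1 than of 7 genes such as Ace, Treml4 and Cx3cr1 numbered 52 (PHZ) and 28 (bleeding) and had a median of -0.66; the others, 102 and 43, had -0.36. In the first part Irf7 stood at 88.7 and 230 CPM and Isg15 at 49.3 and 130 CPM; in the second Irf7 stood at 65.9 and 75.8 CPM and Isg15 at 60.4 and 51.4 CPM. Rsad2 was lower in the PHZ library in both parts, at 23.4 and 138 CPM and at 73.2 and 133 CPM. Both parts held under 50 cells in the bleeding library. Over the whole class there, 3 cells held 47.1% of Isg15, 39.1% of Irf7 and 59.4% of Rsad2 UMIs. In the PHZ library 3 cells held 27.4%, 13.9% and 52.5%. The part of such cells in the contrast between the parts was not tested.

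In neutrophil-like cells the members had a median log2 ratio of 0.04 over 28 compared, against 0.01 over all genes. Called lower were 3 (6.34% of all genes) and called higher 0 (9.95%). Rtp4 stood at 32.9 CPM (PHZ) and 60.6 CPM (bleeding), a ratio of 0.544 (0.403 to 0.740), Oasl1 at 6.99 and 23.2 CPM (0.302), and the Schlafen family gene Slfn5 at 20.7 and 38.3 CPM (0.541), which lost its call without the 3 cells with most of its UMIs, at 0.863. Without cells of 10% or more haemoglobin, which were 18 PHZ and 6 bleeding cells, 7 of 27 members were called lower (6.67% of all genes) and 0 higher (10.5%), with a median of -0.04. Isg15 was then at 27.0 and 52.4 CPM, a ratio of 0.516 (0.368 to 0.732). The class also held 2 clusters with different levels. Cluster 21 (149 PHZ and 64 bleeding cells), led by the mature neutrophil genes Retnlg, Il1b, Csf3r and Cxcr2, held more of 31 of the 39 members in both libraries than cluster 23 (146 and 47 cells), led by the granule genes Ngp, Camp and Ltf. Isg15 stood at 260 and 225 CPM in cluster 21 and at 26.9 and 36.8 CPM in cluster 23. For Oasl2 these levels were 382 and 402 CPM against 5.25 and 4.60 CPM, and for Samhd1 1012 and 1179 CPM against 128 and 166 CPM. Ifitm3 differed less, at 1171 and 915 CPM against 626 and 701 CPM. Markers of other cells differed between these clusters too: the 30 erythroid markers summed to 2806 CPM (PHZ) and 1664 CPM (bleeding) in cluster 21 and to 1045 and 1104 CPM in cluster 23, and the 14 red pulp macrophage markers to 613 and 1246 CPM and to 144 and 113 CPM. Their part in the members' levels was not tested. Within cluster 21, 4 members were called higher in the PHZ library (5.8% of all genes) and 3 lower (9.35%); Ifit1, with 35 and 3 UMIs, and Ifit3, with 47 and 4 UMIs, were among the higher ones with ratios of 3.84 (1.21 to 19.5) and 3.87 (1.41 to 14.8), beside Herc6 (2.41) and Isg20 (2.09). Oasl1 (0.386), Rtp4 (0.506) and Slfn5 (0.635) were the lower ones. Without the 3 cells with most UMIs of the gene in each library, Ifit3, Oasl1 (0.540) and Slfn5 (1.01) lost their calls. In the bleeding library those cells held 100% of the Ifit1, Ifit3 and Herc6 UMIs. The ratios of these genes then had no value, and their calls could end only on the interval.

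Dendritic cell-like cells differed in the other direction from monocyte-like cells. Of 28 members compared, 23 had a ratio above 1, and the median log2 ratio was 0.44 against 0.04 over all genes. Called higher in the PHZ library were 9 (7.3% of all genes) and lower 1 (4.22%). Bst2 stood at 670 CPM (PHZ) and 367 CPM (bleeding), a ratio of 1.83 (1.66 to 2.02), and Ifitm3 at 743 and 464 CPM, a ratio of 1.60 (1.46 to 1.75). Ifi203 stood at 217 and 129 CPM (1.68), Ifi27l2a at 237 and 156 CPM (1.52) and Irf7 at 67.9 and 45.0 CPM (1.51). Larger ratios came from fewer UMIs: Oasl1 had 26 and 8 (5.74), Ifi204 33 and 12 (4.86), Rsad2 43 and 35 (2.17), Oasl2 46 and 42 (1.93), and Ifi213, the lower gene, 8 and 36 (0.392). Without the 3 cells with most UMIs of the gene, 6 of the 10 calls ended (Irf7, Oasl1, Oasl2, Rsad2, Ifi27l2a and Ifi204), and Rsad2 went to 0.781. Bst2, Ifitm3, Ifi203 and Ifi213 kept theirs. After scaling every cell to one total, Irf7 (1.19), Oasl2 (1.46), Ifi27l2a (1.47) and Ifitm3 (1.46) were no longer called. Without cells of 10% or more haemoglobin, Rsad2 was at 1.04 (0.486 to 2.15) and Ifi27l2a at 1.44, both no longer called. A sub-cluster led by erythroid genes, with 25 and 24 cells, had been set aside from the class. Cell make-up moved beside this result, and its part was not tested. Plasmacytoid cells, which make type I interferon, were 12 of 71 (PHZ) and 12 of 146 (bleeding) by their markers, and their marker Siglech stood at 386 and 202 CPM over the class; Cd209a stood at 200 and 95.04 CPM. Conventional dendritic cell-like cells alone, 33 and 62, gave a median of 0.40. Among other interferon genes, Epsti1 (1.87), Ly6a (2.16), Pml (1.72) and Lgals3bp (1.58) were called higher and Ddx60 (0.496) lower, out of 27 compared. The adaptor gene Myd88 (1.90) and Tmem173, which encodes STING (1.72), were called higher among 12 inducers and sensors compared, and the interferon gamma receptor gene Ifngr1 was called lower, at 232 and 360 CPM (0.645).

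Lymphocytes carried another profile, led by Samhd1, Ifi203 and Ifi27l2a. In B cell-like cells these stood at 486, 409 and 298 CPM (PHZ) and at 416, 400 and 281 CPM (bleeding); in T cell-like cells at 321, 313 and 294 CPM and at 294, 285 and 337 CPM. The medians between treatments were -0.12 in B cell-like cells (23 members) and -0.12 in T cell-like cells (28), against 0.03 and 0.02 over all genes. In B cell-like cells 2 members were called higher (0.91% of all genes) and 0 lower (0.473%). They were Rsad2, at 51.5 CPM (PHZ) and 19.0 CPM (bleeding), a ratio of 2.71 (2.37 to 3.10), and Isg15, at 26.6 and 16.0 CPM, a ratio of 1.66 (1.41 to 1.96). In T cell-like cells Rsad2 was called higher, at 72.1 and 23.4 CPM, a ratio of 3.09 (2.67 to 3.57), where 1.84% of all genes were called higher. These levels were below those of background barcodes, and they moved with the erythroid gene Alas2 in the same cells: it stood at 128 and 49.95 CPM in B cell-like cells and at 102 and 56.5 CPM in T cell-like cells. Without cells of 10% or more haemoglobin (70 and 55 B cell-like, 25 and 53 T cell-like), Rsad2 was at 10.6 and 8.69 CPM in B cell-like cells, a ratio of 1.22 (0.942 to 1.57), and at 12.5 and 10.4 CPM in T cell-like cells, a ratio of 1.20 (0.873 to 1.62). Isg15 in B cell-like cells then turned, to 9.36 and 13.9 CPM, a ratio of 0.675 (0.523 to 0.863), and without the 3 cells with most of its UMIs it was no longer called, at 1.30. Ube2l6 was also called higher in both classes over all cells, at 2.31 and 1.61.

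In NK cell-like cells, 1 of 23 members was called higher (3.68% of all genes), Herc6 at 100 and 59.7 CPM, a ratio of 1.68 (1.13 to 2.48), which lost its call without the 3 cells with most of its UMIs, at 1.46. A T cell-like cluster led by Themis, Cd226, Ikzf2 and Cxcr6, cluster 12 with 90 and 245 cells, had more calls than the other T cell-like clusters, where 0, 2 and 1 members were called lower: 10 of 30 members were called lower in the PHZ library (2.57% of all genes), and the median was -0.36. Usp18 stood there at 8.18 CPM (PHZ) and 28.5 CPM (bleeding), a ratio of 0.287, Ifit1 at 19.9 and 49.5 CPM (0.401), Ifit2 at 23.4 and 44.1 CPM (0.529), and Herc6 at 66.6 and 130 CPM (0.514). Isg15 was lower there as well, at 39.7 and 63.9 CPM (0.621). The remaining calls in this cluster were Rtp4 (0.653), Ifi27l2a (0.578), Ifi213 (0.659), Ifi47 (0.621) and Eif2ak2 (0.658). All 10 calls stayed without the 3 cells with most UMIs of the gene in each library. The check could hardly end a lower call, because those cells held the larger share of UMIs in the PHZ library for all but Ifit2. The shares were 100% (PHZ) and 30.4% (bleeding) for Usp18, 70.6% and 41.3% for Isg15, and 25% and 27.1% for Ifit2. This cluster was singled out after its values were seen.

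A small share of cells in most classes carried many interferon UMIs. Cells with at least 1000 UMIs outside haemoglobin were thinned to 1000 such UMIs, and shallower cells were left out. Then 4 or more core UMIs were found in 92.3% of 1077 late erythroid-like PHZ cells and 87.9% of 995 bleeding cells. Of the late erythroid-like cells, 181 of 1258 (PHZ) and 430 of 1425 (bleeding) were too shallow. In B cell-like cells the share was 0.868% (13 of 1498; exact 95% interval 0.463 to 1.48) and 0.609% (21 of 3450; 0.377 to 0.929), and in T cell-like cells 1.65% (9 cells) and 0.928% (20 cells). Neutrophil-like cells had 7.46% and 8.18%, monocyte-like cells 3.25% (5 cells; 1.06 to 7.41) and 8.45% (6 cells; 3.16 to 17.5), and dendritic cell-like cells 0 of 70 and 0 of 146, which allows up to 4.29% and 2.05%. The intervals of the 2 libraries overlapped in B, T, neutrophil-like and monocyte-like cells. Without thinning, the shares were 10.9% and 10.9% in B cell-like cells, 31.8% and 28.6% in T cell-like cells, and 62.3% and 71.8% in monocyte-like cells.

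In lymphocytes these cells differed in which genes led. Among the 13 B cell-like PHZ cells, 10 had more UMIs of Isg15, Rsad2 and Isg20 than of the 4 Ifit genes, and haemoglobin took 60.03% of their UMIs; their Ifit level was 27.9 CPM. The other 3 had at least as many Ifit UMIs, an Ifit level of 1799 CPM and 0.729% haemoglobin. Cells were split by these UMIs, so the difference in Ifit level here and below follows largely from the split. Haemoglobin was not used in it. In the bleeding library 17 of the 21 B cell-like cells had at least as many Ifit UMIs, ties included, at an Ifit level of 2223 CPM. Haemoglobin took 10.5% of their summed UMIs, and 68.1% in 1 of them. The other 4 held 0.797% haemoglobin with an Ifit level of 991 CPM, so cells not led by Ifit genes were not always rich in haemoglobin. Among T cell-like cells, 5 of 9 PHZ cells were not led by Ifit genes. Haemoglobin took 51.7% of their summed UMIs, but 0.736%, 1.35%, 48.7%, 69.4% and 71.3% cell by cell. In the bleeding library 16 of 20 T cell-like cells were led by Ifit genes and held 0.570%. Of the core-rich cells, those under 10% haemoglobin made up 0.2003% of B cell-like PHZ cells (3 cells; 0.0413 to 0.584) and 0.580% of bleeding ones (20 cells; 0.354 to 0.894), and 1.10% and 0.835% of T cell-like cells. In monocyte-like cells 2 of 5 PHZ cells and 5 of 6 bleeding cells were led by Ifit genes. Neutrophil-like cells differed: 20 of 22 PHZ cells and 9 of 9 bleeding cells were not led by Ifit genes, and 16 and 8 of them all held under 10% haemoglobin. Whether the haemoglobin-rich barcodes hold a red cell precursor beside another cell was not tested.

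**Figure D5:**
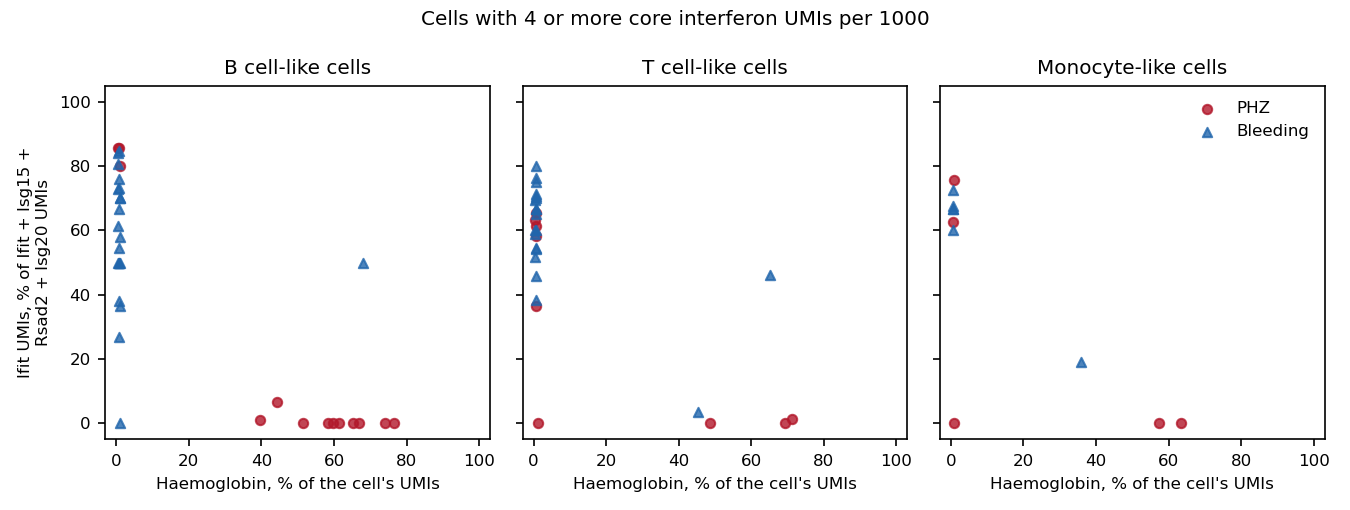
Each point is a B cell-like, T cell-like or monocyte-like cell with 4 or more core interferon UMIs after thinning to 1000 UMIs outside haemoglobin, in the PHZ (red circles) and bleeding (blue triangles) libraries. The x axis is the haemoglobin share of the cell's UMIs and the y axis the share of Ifit UMIs among those of the 4 Ifit genes, Isg15, Rsad2 and Isg20. Neutrophil-like cells are not plotted. Of 19 plotted cells with 10% or more haemoglobin, 17 lie at or under an Ifit share of 25%, and of 55 plotted cells with less haemoglobin, 52 lie above it.

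Red pulp macrophage-like cells, which take up red cells, numbered 17 in the PHZ library, too few for a level, and 212 in the bleeding library. In the bleeding library Rsad2 stood at 2115 CPM, Isg20 at 509 CPM and Isg15 at 351 CPM, and 36.3% of thinned cells (69 of 190) had 4 or more core UMIs. The erythroid gene Alas2 stood at 3092 CPM beside them, while the macrophage genes Vcam1 and C1qa stood at 4321 and 2496 CPM. Haemoglobin took 53.1% of the UMIs of these cells. The part of the erythroid RNA in the members' levels was not tested.

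Interferons themselves were hardly detected. Of 10 ligand genes, 8 had 0 UMIs over all cells, which allows up to 0.0621 CPM in the PHZ library and 0.0483 CPM in the bleeding library (3 UMIs). Ifng had 33 and 52 UMIs in T cell-like cells and 24 and 90 in NK cell-like cells, and Ifnk had 1 and 1 in dendritic cell-like cells. Both genes also had UMIs in erythroid-like, B cell-like and T cell-like cells. The receptor chain gene Ifnar2 was present in all 7 classes, for example at 196 and 140 CPM in late erythroid-like cells, 117 and 111 CPM in neutrophil-like cells and 82.7 and 85.9 CPM in B cell-like cells.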

How the data were processed

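Single-cell libraries of spleen cells, 1 per treatment, were deposited by the authors as raw UMI counts per gene and barcode. The submitters' processing notes name Cell Ranger 7.0.0 and the build mm10, and the file headers give another software version, 4. Everything further was computed for this text with Python 3.11.15, scanpy 1.11.5, scipy 1.17.1, numpy 2.4.6, scikit-learn 1.9.0, leidenalg 0.10.2 and igraph 0.11.9. Cells had at least 1000 UMIs and 300 genes and at most 10% mitochondrial UMIs; 332 PHZ and 754 bleeding barcodes with the highest Scrublet scores were removed as doublets. Leiden clusters (resolution 1, 2000 variable genes, 30 components, 15 neighbours) used no haemoglobin, immunoglobulin, T cell receptor, mitochondrial, ribosomal, sex-linked or listed interferon gene. UMIs were summed per class and divided by the class's UMIs outside haemoglobin, and exact Poisson and conditional binomial intervals at 95% were computed, which cover counting error only. Where a fitted model would need replicates, none was fitted, and no p-value is given.

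A member is named in a class where it is among the 6 with most UMIs there or is called there; of the other pathway lists the first 3 by UMIs or called genes could be named. The promoter and cluster 12 examples were chosen after their values were seen. Members, lists and rules were chosen with earlier results of these data known. Intervals were tested on simulated counts: they held the true ratio for 95.5% of 7034 genes simulated on erythroid-like cells, 96.5% of 2934 on late erythroid-like cells and 95.9% of 8005 on monocyte-like cells. The counts were drawn with counting error only, so this checks how the intervals were computed. It does not cover UMIs gathered in few cells, such as 88.5% of dendritic cell-like Oasl1 UMIs in 3 PHZ cells. Alternatives changed the denominator, cell filter, clustering, gene filter, background RNA and cells left out. Class names were rebuilt here. No annotation of cells by the authors was used. Values of some other genes are not reported here.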

Additional observations from a re-analysis of the deposited data

Results flagged for a closer look

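8 members were called in opposite directions in different classes, which is what singled them out; the difference between classes was not tested. The ratios are PHZ over bleeding.

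Rsad2 was 2.71 in B cell-like, 3.09 in T cell-like and 2.17 in dendritic cell-like cells but 0.385 in monocyte-like cells. Without cells of 10% or more haemoglobin these were 1.22, 1.20, 1.04 and 0.537, so the higher calls ended and the lower one stayed. Isg15 was 1.66 in B cell-like and 1.66 in late erythroid-like cells and 0.612 in monocyte-like cells; without those cells it was 0.675 in B cell-like and 0.638 in monocyte-like cells, so the 2 no longer differed in direction. Irf7 was 1.51 in dendritic cell-like and 0.491 in monocyte-like cells, and Herc6 was 1.68 in NK cell-like and 0.473 in monocyte-like cells; without the 3 cells with most UMIs of the gene, Irf7 lost both calls and Herc6 its NK call. Ifitm3 was 1.60 in dendritic cell-like and 1.72 in late erythroid-like cells and 0.649 in proliferating erythroid precursor-like cells; the first ended after scaling every cell to one total (1.46) and the last without its 3 highest cells (0.753). Bst2 followed the same order at 1.83, 2.16 and 0.533, and the second ended without its 3 highest cells (1.66). Ifi27l2a was 1.52 in dendritic cell-like and 0.231 in late erythroid-like cells, and Oasl1 was 5.74 in dendritic cell-like and 0.302 in neutrophil-like cells; both dendritic calls ended without the 3 highest cells, at 1.40 and 1.39.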

How the results depend on the processing

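No paired analysis was possible because each group is 1 library. Across the alternatives, 78 values lay within the interval of the main value, 4 lay outside it and 2 reversed. Most of these values were class medians, set against the interval of the median over members. The others were PHZ over bleeding ratios of the shares of cells with many core UMIs, set against the interval of that ratio. In erythroid-like cells the median log2 ratio was 0.26 with haemoglobin in the denominator and 0.21 after scaling every cell to one total, against -0.19. It was -0.26 in B cell-like cells with every member that had a UMI, -0.22 in neutrophil-like cells with members of at least 50 CPM, and in monocyte-like cells -0.33 without the 3 cells with most core UMIs and -0.36 in the cells with more Ace, Treml4 and Cx3cr1 group UMIs. The range was 0.31 to 0.68 in late erythroid-like, -0.50 to -0.31 in proliferating precursor-like, 0.21 to 0.59 in dendritic cell-like and -0.66 to -0.33 in monocyte-like cells. Of 49 calls, 44 stayed with haemoglobin in the denominator, 49 at 2000 UMIs per cell, 41 with cells scaled and 27 without the 3 cells with most UMIs of the gene; 28 of 34 stayed without cells of 10% or more haemoglobin. In the haemoglobin bands, 0 of 6 calls stayed at 20 to 50% and 4 of 6 at 50 to 80% without those cells, chosen after seeing the data. Single genes that reversed were Ifi47 in monocyte-like cells (1.02), Slfn5 in cluster 21 (1.01) and Rsad2 in dendritic cell-like cells (0.781), without their 3 highest cells, and Isg15 in B cell-like cells (0.675), without haemoglobin-rich cells. The cause was not tested. Precision is limited by cell numbers: the smaller library held 64 NK cell-like, 71 dendritic cell-like and 71 monocyte-like cells.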
